A study of Danio rerio with 4 samples.

Results

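Cytosolic ribosomal protein genes were described in dissected livers of fasted zebrafish larvae at 6 dpf. The set was chosen with earlier results of these data known, and its members were then taken by name. They are protein-coding rows whose symbol starts with rpl or rps followed by a digit or with rplp, or is rpsa. The S6 kinases and the rps19bp gene were left out. This rule gave 82 of 16405 listed genes, of which 47 were assigned by symbol to the large subunit and 35 to the small subunit. Upper and lower case were not distinguished, and *rps20*, listed as a processed transcript, was left out. Members lay on 25 chromosomes of the GRCz11 assembly, with 7 each on chromosomes 19 and 3.

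Livers of 2 WT libraries (replicates 1 and 4) were compared with livers of 2 *pex5* KO libraries (replicates 1 and 2), to ask how loss of the import receptor for peroxisomal matrix proteins changes hepatic gene expression during fasting. All larvae, WT included, were fasted and 6 days old. The *pex5* KO larvae were homozygous for a frameshift allele made with CRISPR/Cas9 that predicts a truncated Pex5 protein, and maternal *pex5* product is described for embryos much younger than these larvae. How many livers entered a library, and whether libraries came from separate clutches, is not given in the sources used here, so p-values measure only the spread between these libraries. The *pex5* transcript was not analysed here.

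The ribosome consists of ribosomal RNA and a near-equal set of ribosomal proteins, which are needed in the same number of copies apart from the acidic stalk proteins. In vertebrates their mRNAs begin with an oligopyrimidine tract (TOP mRNAs), and their translation depends on mTORC1, the kinase complex that senses nutrients. Control therefore acts to a large degree on translation, which an mRNA measurement does not see. Rps6 is the classical target of the S6 kinases downstream of mTORC1, and its phosphorylation is a common readout of that pathway.

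Libraries were made with CEL-Seq2, which reads each polyadenylated RNA near its 3′ end and removes PCR copies with molecular tags (UMIs). A transcript thus gives a read regardless of its length, so levels were compared between genes without a length correction. Levels are given in TMM, the authors' normalised unit, in which a read was worth between 0.691 and 0.785. The libraries held between 1217737 and 1425834 deduplicated reads, of which 34.3% to 37.5% came from the mitochondrial genome. Hepatocyte markers summed to 159929, 147173, 212545 and 210578 TMM in WT replicate 1, WT replicate 4, *pex5* KO replicate 1 and *pex5* KO replicate 2, the order in which all values of the 4 libraries are given below. Apolipoprotein *apoa2* alone took 7.09%, 7.43%, 11.7% and 12.1% of the reads and made up 67530, 71060, 124000 and 118800 TMM of those sums. Of the 15 tested rows of the hepatocyte list, 7 had a higher and 8 a lower mean in *pex5* KO. Their median log2 difference, *pex5* KO minus WT, was -0.03. In bulk tissue, fewer cells of a type and less RNA per cell cannot be told apart.

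Ribosomal protein transcripts were among the most abundant messages of the liver. Of the 83 nuclear protein-coding genes whose mean level reached 1000 TMM, 20 were members, and 70 of the 82 reached 100 TMM. Together they took 5.39%, 6.20%, 5.32% and 5.56% of all reads, with Wilson 95% intervals of 5.35 to 5.43%, 6.16 to 6.24%, 5.28 to 5.35% and 5.52 to 5.59%, which cover counting error only. WT replicate 4 stood above the other libraries, which lay close together. The share was 5.80% ± 0.571 in WT and 5.44% ± 0.169 in *pex5* KO (SD, n = 2 each), a difference of -0.359 percentage points (exact permutation test, two-sided, p = 0.667). With 2 libraries against 2 this test cannot give a p below 0.33. Without WT replicate 4 the difference was 0.0451 percentage points, of the opposite sign.

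The choice of denominator set whether the genotypes overlapped. Of nuclear reads, the members took 8.62%, 9.87%, 8.44% and 8.46%, so that both *pex5* KO libraries lay below both WT libraries (exact permutation p = 0.33). When the 10 most abundant nuclear genes that are not members, led by *apoa2* and *apoa1b*, were also left out of the denominator, the shares were 13.0%, 14.5%, 13.5% and 13.5% (exact permutation p = 1.0), and the *pex5* KO libraries lay between the WT libraries.

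**Figure D1:**
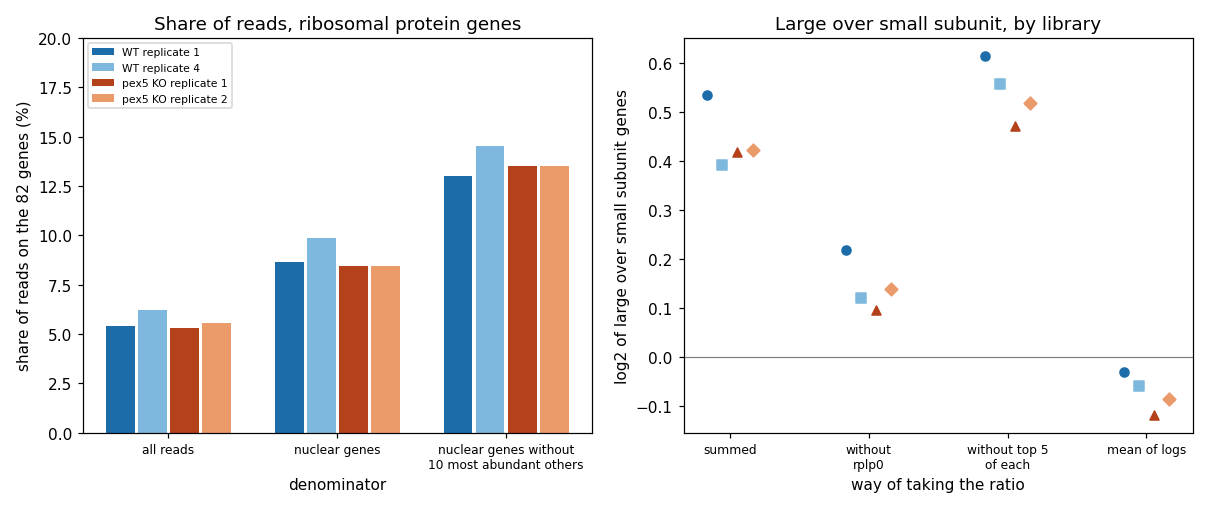
Left, share of reads on the 82 ribosomal protein genes in each library (bars, %), over all reads, over reads of nuclear genes, and over nuclear reads without the 10 most abundant other genes. WT replicate 4 is highest with each denominator (6.20%, 9.87% and 14.5%). Right, log2 of the large over the small subunit level in each library, from summed TMM, from summed TMM without rplp0 or without the 5 most abundant genes of each subunit, and from the mean of log2 values.

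The levels of individual members spanned several orders of magnitude. The proteins are needed in near-equal numbers, but the lowest rows include the less abundant gene of a pair, such as *rps8b* beside *rps8a*. A row thus need not hold all mRNA of a protein. The acidic stalk of the large subunit binds elongation factors, and its anchor gene *rplp0* was the most abundant member by a wide margin, at 5995, 5781, 6409 and 5593 TMM. Its log2 difference (*pex5* KO minus WT, on the log2(TMM + 1) scale) was 0.02 (SE 0.154), a sign that turned when libraries were set to equal totals. Of the stalk proteins that *rplp0* carries, *rplp1* stood at 1004, 1009, 1006 and 1077 TMM, values that differed little in any library.

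After *rplp0* came *rps9*, a small subunit gene, at 2527, 3037, 2606 and 2667 TMM. *rps23*, whose product lies at the decoding centre, followed at 1785, 2257, 2133 and 1895 TMM. In both genes WT replicate 1 was lowest and WT replicate 4 highest, with the *pex5* KO libraries in between. The same order held for *rps26l* (1562, 2307, 1940 and 1980 TMM), for *rpl6* (1166, 1597, 1556 and 1492 TMM), for *rpl23* (1105, 1383, 1314 and 1197 TMM) and for *rps7* (984, 1446, 1372 and 1170 TMM).

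*rps3* and *rpl8*, also among the 10 most abundant, did not share that order. *rps3*, which forms part of the mRNA entry channel, stood at 1214, 1355, 1095 and 1219 TMM. *rpl8* stood at 1253, 1238, 1126 and 1167 TMM. *pex5* KO replicate 1 was the lowest library for both genes, and of the pair the genotypes separated for *rpl8*.

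At the low end, 3 members had a mean under 10 TMM and were not tested. *rpl9* had 0 reads in all 4 libraries, and a floor of 3 reads puts its level below 2.07 to 2.36 TMM in each. *rps8b* had 2 reads, both in *pex5* KO replicate 1. One of the rows named *rpl37* (ENSDARG00000076360, chromosome 2) had 5, 12, 7 and 11 reads, whereas the other (ENSDARG00000034291, chromosome 21) reached 315, 421, 364 and 393 TMM. Just above the limit lay *rpl13a* at 7.81, 19.6, 11.3 and 16.6 TMM (mean 13.8). A read is assigned near an annotated 3′ end, and whether the annotation of these rows holds the end used in liver was not tested.

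The order of the genes by level was almost the same in every library. Spearman correlations of the 79 tested members between pairs of libraries lay between 0.977 and 0.99, a description over genes, which are not replicates. Many neighbours in the order did not differ beyond their spread. Chosen after their values were seen, *rpl7* (1024, 1105, 1009 and 997 TMM) and *rplp1* overlapped across the libraries, as did *rpl12* (966, 1048, 956 and 938 TMM) and *rpl7a* (944, 1112, 1006 and 971 TMM).

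**Figure D2:**
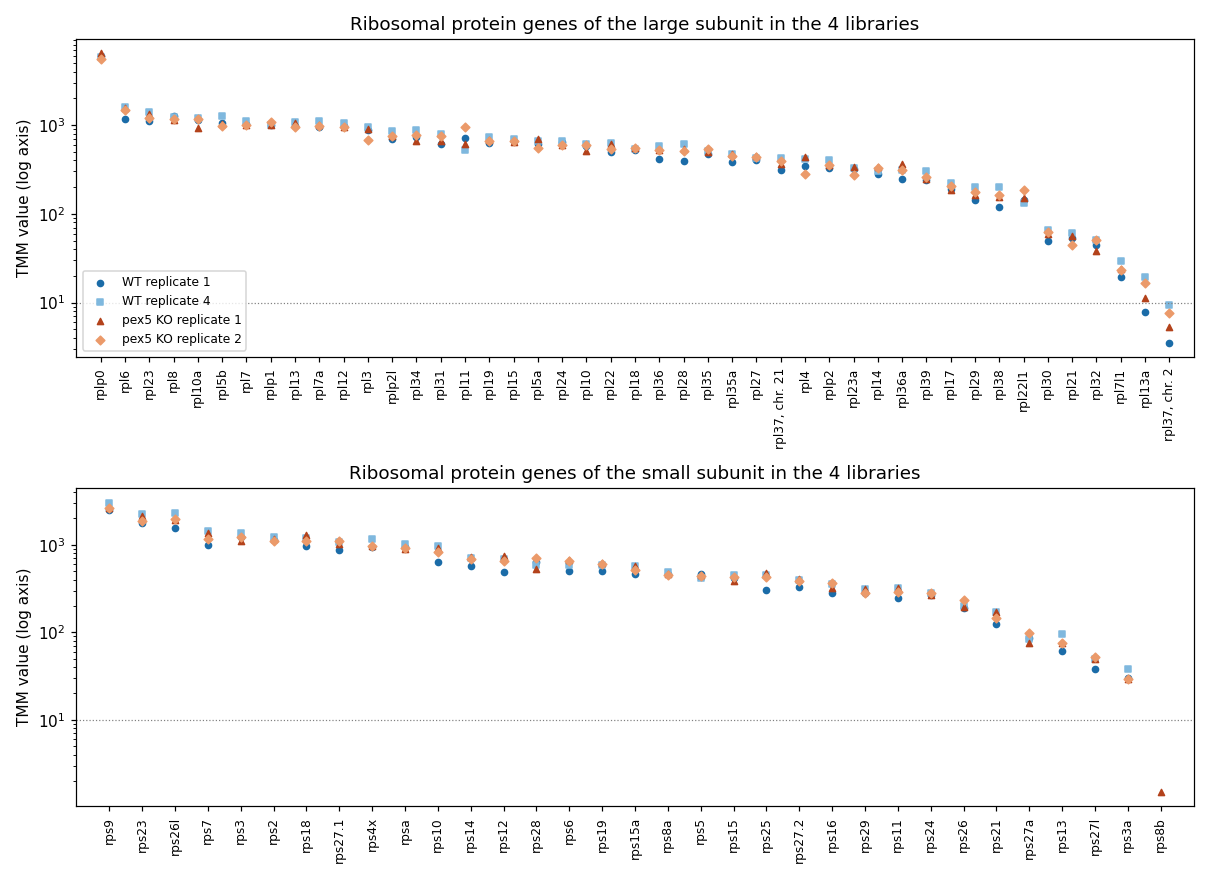
TMM value (log axis) in the 4 libraries of the ribosomal protein genes with a read that are reported by name, large subunit above and small subunit below, ordered by mean level. Values of 0 are not drawn, which leaves out rpl9 and 3 libraries of rps8b. The dotted line marks the mean of 10 TMM needed for a test. Levels run from a mean of 5945 TMM (rplp0) to a mean of 0.376 TMM (rps8b), and the 4 libraries lie close together for most genes.

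No ribosomal protein gene passed the test between fasted *pex5* KO and WT livers. Genes entered the test when their mean level reached 10 TMM. Of the 79 such members, 45 of the large and 34 of the small subunit, 0 passed an adjusted p of 0.05 in limma, and of all 3349 genes tested 0 did (0.0%). The lowest adjusted p was 1.0 among members and 0.376 among all genes. At an unadjusted p under 0.05 there were 0 members and 121 of all genes (3.61%), and the lowest unadjusted p of a member was 0.296. limma with voom weights on the recovered reads also called 0 genes after adjustment.

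The differences of the members were also small in size. Their median log2 difference was 0.02, with quartiles of -0.07 and 0.11 and a range from -0.20 to 0.33, whereas all tested genes had a median of 0.00 with quartiles of -0.26 and 0.29. A difference of more than 0.25 either way was found for 6 members (7.59%) and for 54.5% of all tested genes. Among genes whose mean reached 100 TMM, where counting error is smaller, these shares were 8.57% of 70 members and 46.5% of all tested genes. Members and other genes were not matched by level above this cut. The part of read depth in the contrast was not tested. The test leaves room for changes that it could not show. The standard errors had a median of 0.23, and the 95% limma interval lay within a 2-fold change either way for 76 of 79 members, the exceptions being *rpl11*, *rps25* and *rpl13a*.

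The sign of the small differences followed the scaling. The mean was higher in *pex5* KO for 44 of 79 members (55.7%, against 50.5% of all tested genes). With every library set to the same total it was higher for 23 of 79 (29.1%, against 41.0% of all tested genes), and with every library set to the same nuclear total for 15 (19.0%, against 37.5%). The last scaling moved the median of all tested genes by -0.13 and that of the members to -0.11, which left the members 0.01 above all genes. Without WT replicate 1, 19 members were higher (24.1%, against 49.0% of all tested genes). Without WT replicate 4, 59 members were higher (74.7%, against 51.7%).

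**Figure D3:**
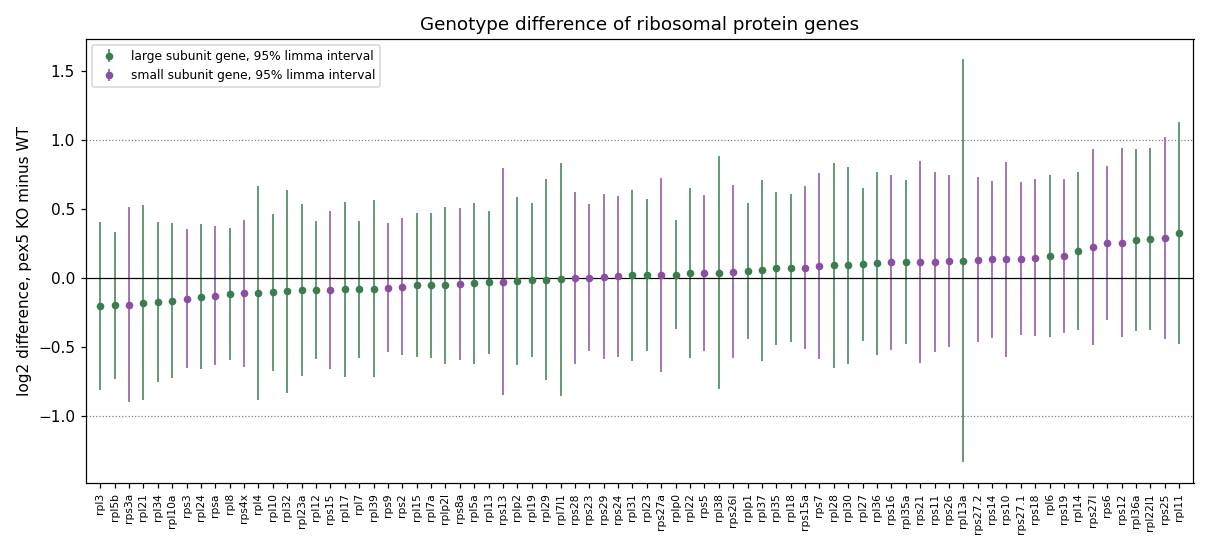
Log2 difference (pex5 KO minus WT) of the tested ribosomal protein genes reported by name, with its 95% limma interval, in order of size, green for the large and purple for the small subunit. Dotted lines mark a 2-fold change either way. All differences lie between -0.20 and 0.33 and every interval includes 0.

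*rps6*, which encodes the phosphorylated target of the S6 kinases, had the lowest p of all members. Its level was 508, 594, 664 and 648 TMM. Both *pex5* KO libraries lay above both WT libraries, with 551 ± 61.1 TMM in WT and 656 ± 11.3 TMM in *pex5* KO (SD, n = 2 each). The log2 difference was 0.25 (SE 0.219), with an adjusted p of 1.0 in limma. The separation was present under all 4 scalings, and the difference was 0.14 without WT replicate 1 and 0.37 without WT replicate 4.

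The genotypes did not overlap for 7 members that were higher in *pex5* KO (8.86%, against 16.9% of all tested genes) and for 8 that were lower (10.1%, against 13.5%). Both shares lay below those of all genes. With equal nuclear totals the shares were 2.53% higher and 41.8% lower among members, against 11.1% and 22.2% of all tested genes. Under all 4 scalings the separation held for 2 of the 7 higher members, *rps6* and *rpl14*, and for all 8 lower members. Equal totals and equal nuclear totals also moved the median of all tested genes, by -0.09 and -0.13.

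Among the higher members, *rpl22l1*, a paralog of *rpl22*, stood at 143, 133, 152 and 187 TMM, with a log2 difference of 0.28 (SE 0.259) that was 0.13 without *pex5* KO replicate 2 and 0.43 without *pex5* KO replicate 1. *rps27l*, whose human counterpart is induced by p53, stood at 38.3, 49.5, 49.6 and 52.5 TMM, with a log2 difference of 0.22. In *rps27l* WT replicate 4 and *pex5* KO replicate 1 were almost equal, and without WT replicate 1 the difference was 0.04. *rpl14* stood at 282, 301, 337 and 330 TMM, with a log2 difference of 0.19. *rps19*, whose human orthologue is mutated in Diamond-Blackfan anaemia, stood at 502, 587, 612 and 602 TMM, with a log2 difference of 0.16 that was 0.05 without WT replicate 1 and 0.27 without WT replicate 4. For *rpl14* and *rps19* the *pex5* KO libraries were close together and just above WT replicate 4. Outside the rule for naming genes, the other separated genes were *rpl27* (402, 420, 443 and 437 TMM) and *rpl18* (520, 536, 554 and 556 TMM). With equal nuclear totals *rpl18* separated the other way, with both *pex5* KO libraries below both WT libraries.

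Among the lower members, *rpl5b*, which encodes a protein that joins the ribosome bound to 5S ribosomal RNA, stood at 1042, 1250, 1024 and 964 TMM, with a log2 difference of -0.20 (SE 0.209). *rps3a* stood at 29.8, 37.7, 29.3 and 29.0 TMM, with a log2 difference of -0.19. In both genes WT replicate 4 was high, and without it the differences were -0.07 for *rpl5b* and -0.03 for *rps3a*. *rpl24* stood at 646, 660, 600 and 588 TMM, with a log2 difference of -0.14. *rpsa*, whose product is also known as a laminin receptor, stood at 949, 1030, 886 and 924 TMM, with a log2 difference of -0.13 that was -0.07 without WT replicate 4. For *rpl8*, given above, the log2 difference was -0.12. In *rpl24* and *rpl8* the libraries of each genotype lay close together. *rpl7*, *rpl12* and *rpl15* (666, 691, 648 and 661 TMM) completed the set and are named for completeness.

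Among the 79 tested members, the greatest log2 difference belonged to *rpl11*, whose product binds 5S ribosomal RNA with Rpl5 and, in mammals, the p53 regulator Mdm2. It stood at 713, 524, 614 and 955 TMM. The difference was 0.33 (SE 0.316), but the genotypes overlapped, and the libraries of each genotype were farther apart than the genotypes. Without *pex5* KO replicate 2 the difference was 0.01, and without *pex5* KO replicate 1 it was 0.64. *rpl11* was also among the few members for which WT replicate 4 was the lowest library. *rps25*, named after its values were seen because its interval was wide, stood at 304, 452, 480 and 427 TMM, with a log2 difference of 0.29 that was 0.00 without WT replicate 1, the low library.

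Other members with known roles overlapped between genotypes. *rpl10*, whose product joins the large subunit late in its maturation, stood at 582, 605, 505 and 602 TMM. *rps27a*, which encodes ubiquitin fused to a ribosomal protein, stood at 85.9, 83.2, 75.2 and 98.2 TMM. In both genes *pex5* KO replicate 1 was lowest.

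By the median over members, the WT libraries differed from each other by more than the genotypes did, while the *pex5* KO libraries did not. A difference of single libraries is also wider by construction than a difference of means. WT replicate 4 exceeded WT replicate 1 for 72 of 79 members, with a median log2 difference of 0.25, whereas among all tested genes it did so for 1822 of 3349, with a median of 0.06. Among the 553 genes outside the set with a mean of at least 100 TMM, that median was 0.13. In lists described below it was 0.27 for other TOP mRNAs and 0.64 for ribosome biogenesis genes. For hepatocyte and erythrocyte markers it was -0.18 and -1.06. Between the *pex5* KO libraries the median over members was -0.02, with 34 members higher and 45 lower in replicate 2. Single members differed either way between these libraries, from -0.63 to 0.64, a wider range than that of the genotype difference (-0.20 to 0.33). The counts of the libraries of a genotype lay within 2 SD of counting error of each other for 31 members in WT and for 52 members in *pex5* KO.

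WT replicate 1 was the lowest library for 48 members (60.8%, against 28.8% of all tested genes), and WT replicate 4 was the highest for 44 (55.7%, against 29.3%). The median deviation from the mean of the 4 libraries was -0.10, 0.10, 0.01 and 0.00 on the log2 scale. WT replicate 4 was the highest library for 62, 43 and 67 members with equal totals, with median-of-ratios scaling and with equal nuclear totals. These were 78.5%, 54.4% and 84.8% of members, against 33.9%, 28.4% and 35.1% of all tested genes. The low place of WT replicate 1 was less stable, since with equal totals WT replicate 1 and *pex5* KO replicate 1 were each lowest for 34 members (43.0%). Of all tested genes, 24.9% were lowest in WT replicate 1 and 31.1% in *pex5* KO replicate 1 with that scaling.

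Values of other cell types differed between the libraries, some of them with WT replicate 4. Markers of exocrine pancreas summed to 1443, 3601, 2460 and 1656 TMM, and WT replicate 4 was the highest library for 10 of the 10 tested of 14 listed, while *cela1.1*, for example, had 0 reads throughout. Markers of heart and skeletal muscle summed to 404, 1817, 558 and 777 TMM, with WT replicate 4 highest for 8 of the 9 tested of 18 listed, and 6 of the 18, among them *cmlc1*, had 0 reads in *pex5* KO replicate 1. Cardiac genes of that list went another way, with *myl7* at 87.3, 132, 15 and 14.5 TMM, low in both *pex5* KO libraries (log2 difference -2.78). Erythrocyte markers, at 1254, 558, 2322 and 2041 TMM, had a higher mean in *pex5* KO for 10 of the 10 tested, with a median log2 difference of 1.3. Of the 10, 6 were higher without overlap between genotypes (against 16.9% of all tested genes), and 0 passed the adjusted threshold. Enterocyte markers summed to 774, 1133, 2973 and 2062 TMM, most of it *apoa4b.1* (704, 961, 2182 and 1937 TMM). Without *apoa4b.1* the sums were 70.3, 172, 791 and 125 TMM, so that *pex5* KO replicate 1 alone stood out. Leukocyte markers were near the floor at 7.10, 5.50, 14.3 and 8.99 TMM. The part of any of these in the levels of the ribosomal protein genes was not tested.

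**Figure D4:**
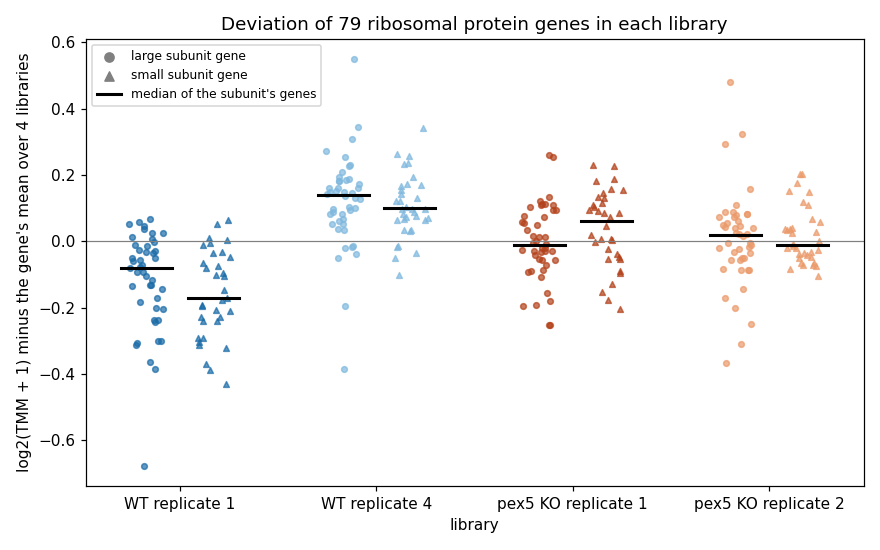
Deviation of each of the 79 tested ribosomal protein genes from its mean over the 4 libraries (log2(TMM + 1)), by library, with circles for large and triangles for small subunit genes and lines for the median of each subunit. WT replicate 1 lies mostly below 0 and WT replicate 4 mostly above 0, while the pex5 KO libraries lie around 0.

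As a set, the members varied less than other genes. The SD of log2 values over the 4 libraries had a median of 0.14 among members and of 0.37 among all tested genes. Above a mean level of 100 TMM, the 553 genes that are not members had a median of 0.32 and the members 0.14. These sets were not matched by level, and the part of read depth was not tested. Among the tested members, named after their values were seen, *rpl15*, *rps24* (265, 281, 270 and 281 TMM) and *rpl18* had the lowest SD, and *rpl13a*, *rpl11* and *rpl38* (120, 200, 155 and 164 TMM) the highest. A few large subunit genes, also chosen after their values were seen, were low in *pex5* KO replicate 2 alone, among them *rpl3* (868, 940, 904 and 679 TMM) and *rpl4* (344, 410, 433 and 280 TMM).

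Large subunit genes had a median log2 difference of -0.02, with 20 of 45 higher in *pex5* KO (44.4%). Small subunit genes had a median of 0.07, with 24 of 34 higher (70.6%). Of all tested genes, 50.5% were higher. These counts by subunit hold for the deposited scaling and were not taken under the other scalings. With equal totals 23 of all 79 members were higher (29.1%, against 41.0% of all tested genes). With equal nuclear totals 15 were higher (19.0%, against 37.5%). WT replicate 1 was the lowest library for 24 small subunit genes (70.6%) and 24 large subunit genes (53.3%). Among all tested genes that share was 28.8%. The summed TMM of large subunit genes was 30390, 33640, 32110 and 31360, and that of small subunit genes 20970, 25630, 24020 and 23400. The log2 ratio of large to small was thus 0.535, 0.392, 0.419 and 0.423, with the *pex5* KO libraries inside the range of the WT libraries. The difference was -0.043 (exact permutation test, two-sided, p = 1.0), and without WT replicate 1 it was 0.028.

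The ratio depended on how it was taken, and the summed levels compare 47 large with 35 small subunit genes. Without *rplp0*, an alternative chosen after seeing the data, the log2 ratio was 0.218, 0.120, 0.097 and 0.139, with a difference of -0.051 (exact permutation p = 0.667). From the mean log2 value per gene, which gives every gene the same weight, it was -0.031, -0.059, -0.117 and -0.086, with a difference of -0.056 (exact permutation p = 0.33). Without the 5 most abundant genes of each subunit it was 0.614, 0.556, 0.470 and 0.518, with a difference of -0.091 (exact permutation p = 0.33). With the last pair of measures both *pex5* KO libraries lay below both WT libraries, and 0.33 is the smallest p this design allows.

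Several ribosomal proteins are encoded by a pair of genes in zebrafish. The balance within 7 pairs was followed as the share of the pair's reads on the less abundant gene. The pairs were taken by symbol, so the genes of a pair need not encode the same protein. No share differed by the exact permutation test (two-sided, adjusted p = 1.0 for each of the 7 pairs). With 2 libraries against 2 this test cannot give a p below 0.33, so it could not have shown a difference for any pair. How reads that fit both genes of a pair were assigned is not given in the sources used here, so the shares of near-identical genes are uncertain.

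*rpl5a* and *rpl5b* encode the same 5S-binding protein. *rpl5a* (615, 656, 687 and 556 TMM) took 37.1%, 34.4%, 40.1% and 36.6% of the pair's reads. The difference was 2.60 percentage points (exact permutation p = 0.667), with overlap between genotypes, and ran from 0.819 without *pex5* KO replicate 1 to 4.38 without *pex5* KO replicate 2. The stalk pair *rplp2* (326, 400, 356 and 354 TMM) and *rplp2l* (695, 865, 746 and 750 TMM) kept the steadiest balance of the abundant pairs, with *rplp2* at 31.9%, 31.6%, 32.3% and 32.1%. The *pex5* KO libraries lay above the WT libraries by 0.439 percentage points (exact permutation p = 0.33), which is less than the counting intervals of the shares.

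*rpl22* (495, 624, 612 and 530 TMM) and *rpl22l1* have been studied for distinct roles in blood development in mouse and zebrafish. *rpl22l1* took 22.4%, 17.6%, 19.9% and 26.1% of the pair's reads, the widest spread of any pair. WT replicate 1 lay between the *pex5* KO libraries, and the difference of 2.97 percentage points (exact permutation p = 0.667) was -0.158 without *pex5* KO replicate 2.

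In the small subunit, *rps27.2* (330, 395, 404 and 388 TMM) took 27.5%, 26.7%, 28.1% and 25.9% of the reads it shared with *rps27.1* (870, 1082, 1033 and 1107 TMM). *rps26* (190, 202, 197 and 231 TMM) took 10.9%, 8.04%, 9.22% and 10.4% of the reads it shared with *rps26l*. In both pairs the genotypes overlapped and the sign of the difference changed when single libraries were left out. *rps8b* took 0.319% of its pair in *pex5* KO replicate 1 and 0% elsewhere, the rest being *rps8a* (459, 494, 470 and 454 TMM). *rpl7l1* (19.2, 29.8, 24.1 and 23.5 TMM), related to a nucleolar factor, took 1.84%, 2.63%, 2.33% and 2.30% beside *rpl7*.

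The rows named *rpl37* were added as a pair after seeing the data. The minor row took 1.11%, 2.19%, 1.43% and 1.90% of their reads, and the genotypes overlapped.

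**Figure D5:**
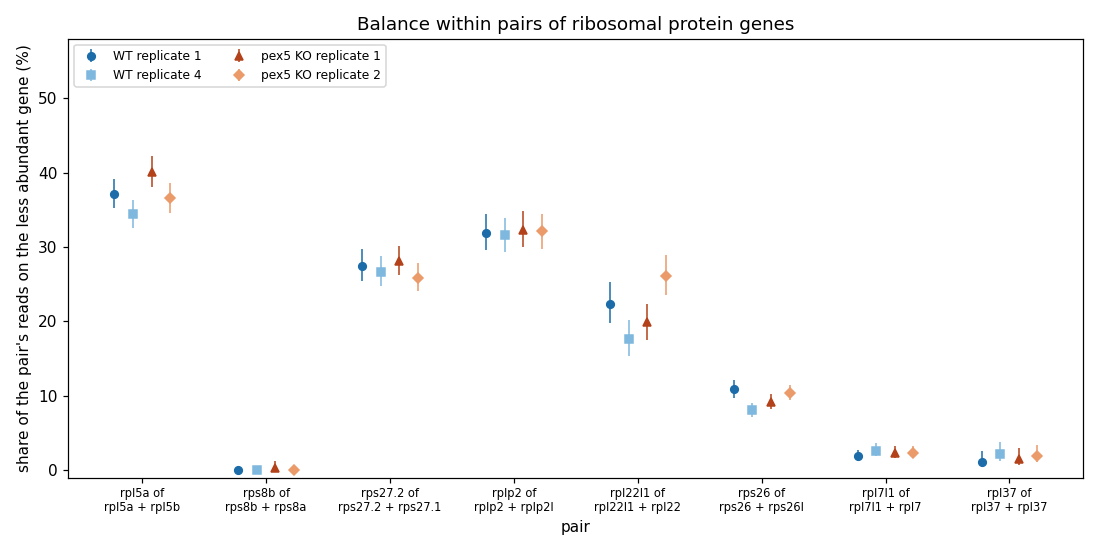
Share of the reads of a gene pair on its less abundant gene (%) in each library, with Wilson 95% intervals that cover counting error only. The libraries lie close together in most pairs, with the widest spread for rpl22l1 (17.6% to 26.1%) and the narrowest of the abundant pairs for rplp2 (31.6% to 32.3%).

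Some ribosomal proteins have symbols that do not follow the rule. *faua*, which encodes a ubiquitin-like domain fused to a small subunit protein, stood at 400, 513, 522 and 499 TMM. WT replicate 1 was lowest, and its paralog *faub* had at most 1 read per library. *rack1*, a scaffold on the small subunit, stood at 279, 285, 277 and 261 TMM, lower in both *pex5* KO libraries than in both WT libraries. *faua* and *rack1* had an adjusted p of 1.0 in limma.

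Genes for ribosome biogenesis, the factors that process ribosomal RNA and assemble the subunits, were lower in *pex5* KO in 46 of the 50 tested of 102 in the list, with a median log2 difference of -0.39. None of the 50 passed the adjusted threshold in limma, and 4 of the 50 had an unadjusted p under 0.05 (against 3.61% of all tested genes). The genotypes did not overlap for 20 that were lower (40.0%, against 13.5% of all tested genes) and for 1 that was higher (against 16.9%). Their summed level was 2318, 3858, 2228 and 2234 TMM, so that WT replicate 4 stood apart from the other libraries, and it was the highest library for 41 of the 50. Without WT replicate 4, 29 of 46 tested were lower, with a median of -0.05, and without WT replicate 1, 45 of 50 were lower, with a median of -0.81.

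The biogenesis genes with the largest differences among those without overlap were *gnl3l*, *dcaf13* and *ltv1*. *gnl3l*, a nucleolar GTPase gene, stood at 17.0, 28.3, 7.52 and 7.60 TMM, with a log2 difference of -1.42 (SE 0.450, limma adjusted p = 1.0). *dcaf13*, a factor of small subunit processing, stood at 67.4, 123, 44.3 and 41.5 TMM, with a log2 difference of -1.07 that was -0.64 without WT replicate 4. *ltv1*, which acts in export and maturation of the small subunit, stood at 34.1, 54.2, 24.1 and 18.0 TMM, with a log2 difference of -1.01. In each of the 3 the *pex5* KO libraries lay below both WT libraries by the way the genes were chosen. The level behind *gnl3l* was only 10 to 36 reads per library.

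Other TOP mRNAs, such as those of translation factors, were higher in 7 and lower in 10 of 17 tested, with a median log2 difference of -0.05 and 0 past the adjusted threshold. The genotypes did not overlap for 1 that was higher (against 16.9% of all tested genes) and for 2 that were lower (11.8%, against 13.5%). The higher gene was *eif3ea* (9.93, 19.6, 30.8 and 24.2 TMM), an initiation factor gene. The lower genes were *btf3* (36.2, 36.9, 19.5 and 32.5 TMM), a gene for a nascent-chain binding protein, and *pabpc1a* (710, 771, 685 and 662 TMM), which encodes a poly(A)-binding protein. Of the S6 kinases and TOP regulators, 3 of 8 could be tested and 0 passed. All 3 were *eif4ebp* genes, so nothing was tested for an S6 kinase gene. Of these, *eif4ebp2*, named after its values were seen, stood at 199, 291, 260 and 276 TMM. Its log2 difference was 0.15, with overlap between genotypes. *eif4ebp3*, a translation repressor that mTORC1 inactivates, stood at 106, 96.6, 65.4 and 96.1 TMM, and *rps6kb1a*, an S6 kinase gene, had 1 read in all libraries together.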

How the data were processed

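The authors extracted UMIs with UMI-tools 1.1.1, trimmed reads with Trim Galore 0.6.7, mapped them to GRCz11 with HISAT2 2.2.1, counted them per gene with featureCounts 2.0.1, removed UMI duplicates, scaled by TMM and deposited log2(TMM + 1) values for each of the 4 libraries, without pooling replicates. The annotation release is not given in the sources used here. The logarithm was undone, and 100% of values were whole multiples of a step per library (tolerance 0.05 of a step), which gave the reads behind each value.

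Genotypes were compared with limma 3.58.1 (R 4.3.3, trend, Benjamini-Hochberg, threshold 0.05) on the deposited log2 values of the 3349 genes whose mean level reached 10 TMM. The fit was also run on simulated reads with 200 genes changed 4-fold. That run does not show whether differences as small as those of the members could be found. Shares, ratios and pairs were tested with exact permutation tests in scipy 1.17.1 (Python 3.11.15, numpy 2.4.6, pandas 2.3.3). Intervals are Wilson 95%. The members and gene lists were chosen with earlier results of these data known. By rule, the text names genes of pairs, the 10 most abundant, the 5 highest and 5 lowest separated differences, members under 10 TMM, role genes, and the 3 largest separated differences of each other list. All 82 members were found in the gene name table by ID, 73 under the same symbol. *rpl41* was not analysed here, and no sequences were used. Some genes that the rule names are counted in the sets but are not reported here by name.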

Additional observations from a re-analysis of the deposited data

How the results depend on the processing

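No paired analysis was run, since the labels do not say that any WT library belongs with a *pex5* KO library. The call of 0 members after adjustment held under every alternative of pseudocount, filter, scaling, model and library left out, while the count over all genes was 9 without WT replicate 1, 3 without WT replicate 4 and 0 without either *pex5* KO library. The counts of members without overlap moved with the scaling: 2 higher and 17 lower with equal totals (12.9% and 19.3% of all tested genes), and 2 higher and 33 lower with equal nuclear totals, scalings that moved the median of all genes by -0.09 and -0.13. When libraries were left out they ran from 9 to 49 (higher) and from 9 to 45 (lower), with 62.0% of members higher without WT replicate 4 (36.3% of all tested genes) and 57.0% lower without WT replicate 1 (36.0%), where fewer libraries make separation easier by construction, and a lone library is assumed to vary like the others. The median difference of the members was -0.11 with equal nuclear totals and ran from -0.12 to 0.12 when libraries were left out. Signs turned for the summed share (from -0.762 to 0.0451 when libraries were left out, the latter without WT replicate 4) and the subunit ratio (from -0.114 to 0.028, the latter without WT replicate 1), and the cause was not tested. Leaving out libraries, the difference in paralog share ran from -1.18 to 1.0 percentage points for *rps27.2*, from -0.158 to 6.09 for *rpl22l1*, from -1.03 to 1.78 for *rps26* and from -0.315 to 0.478 for *rpl7l1*. The log2 difference of *rplp0* was -0.07 with equal totals, -0.11 with equal nuclear totals and -0.08 with voom. When libraries were left out it ran from -0.07 to 0.12. The other members and the biogenesis genes with a printed log2 difference did not turn in sign under any alternative run, but some differences almost vanished. Examples are *rps25* (0.0 without WT replicate 1), *rpl11* (0.01 without *pex5* KO replicate 2) and *rps19* (0.03 with equal nuclear totals). The marker gene *myl7* was not followed in this way. Fits for single genes, the alternatives without *rplp0* or with lower-case symbols only and the biogenesis counts with libraries left out were chosen after seeing the data. So was the separation of *rps6* and of the other members under all scalings.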
